A study of Homo sapiens with 12 samples.

Results

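The data compared H1299 libraries labelled DCBLD2 with H1299 libraries labelled control, 3 against 3, across all genes of the deposited table. The members were chosen by their labels alone, and they make up 6 of the 12 libraries of the series. H1299 is an established line of human non-small-cell lung carcinoma cells. The control group carries the genotype label WT and the other the label DCBLD2 overexpression, and no empty construct is named for the control. The remaining 6 libraries come from THP-1, a monocytic leukaemia line given the phorbol ester PMA for 24 h and then kept for 48 h with one or the other kind of H1299 cell. The labels do not say whether the H1299 libraries came from such cultures, whether the DCBLD2 cells were a pool or 1 clone, or whether replicates were separate cultures. All p-values therefore measure only the spread between these libraries, which may be technical. In bulk RNA, fewer cells of a kind and less RNA per cell cannot be told apart.

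DCBLD2 is a transmembrane protein with an extracellular part related to that of the neuropilins, the co-receptors of semaphorins and vascular endothelial growth factor. It is expressed in endothelium, smooth muscle and many carcinomas, where it has been tied to growth factor receptor signalling. Heat-shock proteins fold other proteins and are induced when unfolded protein accumulates. The circadian clock is a transcriptional loop in which the activators CLOCK or NPAS2, each paired with BMAL1, bind E-boxes and drive PER, CRY and NR1D genes, whose products repress the loop.

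DCBLD2 itself went against the labels. Its level was 247, 148 and 196 TPM in the libraries labelled control and 105, 98.2 and 92.5 TPM in those labelled DCBLD2, in order of replicate. All 3 libraries labelled overexpression lay below all 3 labelled control, and the spread was wider among the controls. The mean was 197 ± 49.4 TPM (SD, n = 3) against 98.4 ± 6.03 TPM (SD, n = 3). On counts, edgeR's quasi-likelihood test gave a log2 fold change of -1.27 ± 0.17 (SE) and an adjusted p (Benjamini-Hochberg) of 0.00284. On GRCh38 this gene, ENSG00000057019, occupies 98795941 to 98901689 of chromosome 3, read from the minus strand. The change in counts was larger than the change in TPM, which was -0.96 on the log2(TPM + 1) scale. Reads per TPM, which follow the authors' estimate of the transcripts' effective length, were 0.884, 0.800 and 0.816 of the mean control value in the libraries labelled DCBLD2 and 1.04, 0.967 and 0.988 in those labelled control. The groups were apart in this measure too. They were also apart for genes with hardly any shift, such as MYL6 (0.995 of control) and CDC20 (0.999). The share of all genes apart at any size of shift is not given here. Of 11237 genes with at least 1 TPM in all 6 libraries, 54 had a value at least 1.25-fold lower and 46 a value at least 1.25-fold higher, with groups apart. DCBLD2, at 0.833 of control, is not among them. Which transcript forms the counts of DCBLD2 came from was not analysed here. Every direction below is labelled DCBLD2 against labelled control. Were the labels of the groups exchanged, every direction would turn, and whether they are was not tested. Whether the counted annotation covers RNA made from an introduced construct was not tested either.

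**Figure D1:**
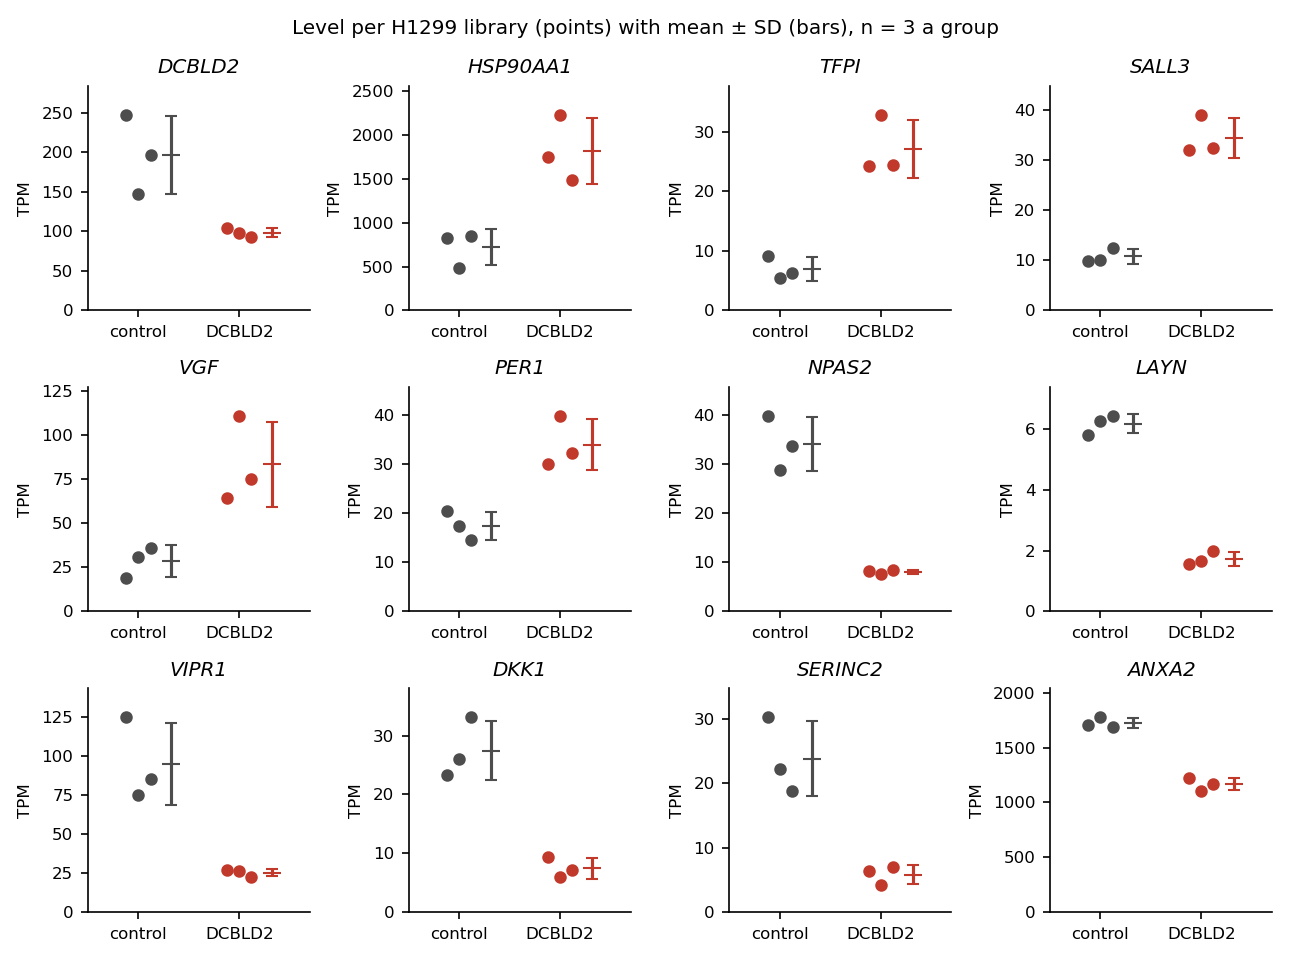
Level in TPM (abundance scaled to transcript length and library size, y axes from 0) of 12 genes in each H1299 library, points in order of replicate, with the mean ± SD of 3 libraries beside them. The groups are apart for all 12 genes, most of them chosen by a rule that required it, and DCBLD2 lies at 92.5 to 105 TPM in the libraries labelled DCBLD2 and at 148 to 247 TPM in those labelled control.

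Calls required adjusted p below 0.05 in edgeR's test, which also gives every adjusted p and log2 fold change ± SE below. Of 12773 genes tested, 1313 (10.3%) were higher and 1356 (10.6%) lower, together 20.9%. At least 2-fold changes were made by 189 (1.48%) and 258 (2.02%), and the median size among called genes was 0.63 on the log2 scale. The libraries held 14578887 to 23388187 estimated reads, 3.18% to 3.62% of them mitochondrial. Single libraries weighed on these counts: 184 genes were higher and 330 lower without labelled DCBLD2 replicate 2, 559 and 815 without labelled DCBLD2 replicate 1, and 748 and 901 without labelled control replicate 3. A core of 498 genes (3.9%), 176 higher and 322 lower, was called with any 1 library left out. Groups did not overlap in TPM for 4792 tested genes (37.5%), the share beside which every mention of groups apart below is to be read.

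The comparison also moved with base composition. Across 12600 genes whose transcripts could be measured, the log2 fold change fell with GC content (Spearman's rank correlation of -0.43, a description over genes, which share libraries and are not independent). The genes were put into 5 equal bins of 2520. In the bin with the lowest GC content, 30.24% to 40.93%, 21.5% were called higher and 2.1% lower. In the bin with the highest, 58.51% to 75.81%, 2.74% were higher and 18.5% lower. The libraries at the ends were labelled control replicate 2, with a median deviation of -0.385 (log2 CPM, counts scaled to library size) in the lowest bin, and labelled DCBLD2 replicate 2, with 0.255. Labelled control replicate 1 (0.0617) and labelled DCBLD2 replicate 3 (0.00721) did not follow the order of the groups. An offset for GC content and length, chosen after seeing the data, left a rank correlation of -0.004, with 1649 genes (13.1%) higher and 1827 (14.5%) lower. Of the original calls it kept 1030 of 1313 higher and 1180 of 1356 lower genes, and 491 of the 498 core genes. List counts with this offset are given with the lists. The part of base composition in any single result was not tested.

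**Figure D2:**
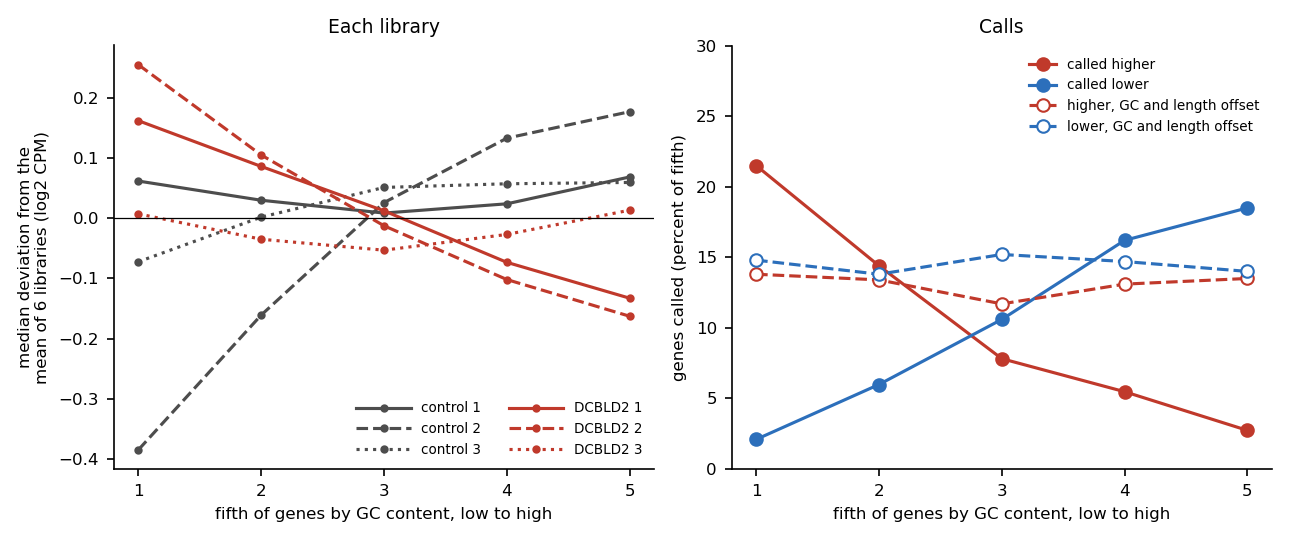
Left, the median deviation of each H1299 library from the mean of the 6 (log2 CPM) in 5 bins of genes ordered by GC content. Right, the percent of each bin called higher or lower with and without the GC and length offset. Labelled control replicate 2 and labelled DCBLD2 replicate 2 tilt in opposite directions, and with the offset 11.7% to 15.2% of each bin are called in either direction.

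The heat-shock and clock lists described below have well-known promoter elements, so promoter stretches are shown for the called members that carry them. The sequences are the 250 bases before the start of each gene, 5′ to 3′ on the gene's own strand, from RefSeq on GRCh38.p14. In the first pair, capitals mark GAANNTTC, the core of the heat shock element that heat-shock factors bind. It reads the same on both strands. HSPA8 lies at chr11:123062137-123062386, minus strand, and CHORDC1 at chr11:90223050-90223299, minus strand.
HSPA8: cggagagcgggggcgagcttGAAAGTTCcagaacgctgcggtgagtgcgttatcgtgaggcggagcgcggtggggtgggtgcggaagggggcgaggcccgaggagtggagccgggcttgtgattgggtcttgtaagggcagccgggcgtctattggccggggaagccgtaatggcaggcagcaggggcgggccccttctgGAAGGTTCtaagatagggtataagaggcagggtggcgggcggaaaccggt
CHORDC1: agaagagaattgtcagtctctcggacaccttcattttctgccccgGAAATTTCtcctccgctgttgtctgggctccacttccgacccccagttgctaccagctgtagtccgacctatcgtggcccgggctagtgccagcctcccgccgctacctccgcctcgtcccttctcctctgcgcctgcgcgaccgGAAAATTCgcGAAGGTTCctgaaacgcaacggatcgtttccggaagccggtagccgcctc
In the second pair, capitals mark the E-box CACGTG, which is also the same on both strands. PER1 lies at chr17:8152405-8152654, minus strand, and CIART at chr1:150282304-150282553, plus strand.
PER1: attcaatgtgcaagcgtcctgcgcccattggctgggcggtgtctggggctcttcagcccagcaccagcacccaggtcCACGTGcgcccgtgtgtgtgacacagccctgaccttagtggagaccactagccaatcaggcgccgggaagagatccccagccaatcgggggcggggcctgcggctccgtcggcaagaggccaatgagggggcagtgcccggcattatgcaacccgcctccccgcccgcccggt
CIART: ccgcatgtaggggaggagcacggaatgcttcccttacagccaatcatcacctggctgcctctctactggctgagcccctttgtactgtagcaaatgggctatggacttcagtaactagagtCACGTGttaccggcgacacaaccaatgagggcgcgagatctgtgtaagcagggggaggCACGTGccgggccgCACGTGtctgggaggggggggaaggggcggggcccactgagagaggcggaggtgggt
CHORDC1 holds 3 matches to GAANNTTC, 2 of them 2 bases apart near the start, and HSPA8 holds 2. CIART holds 3 E-boxes and PER1 holds 1. Of 42 heat-shock list members with a promoter in the table, 10 (23.8%) held GAANNTTC, and of the 14 called higher, 4 (28.6%) did, HSPA1A and HSPA1B being the other pair. Over all 27305 promoters of this length the share was 5.85%, and over the 10324 of tested genes 4.07%. CACGTG was in 5 of 19 clock list members (26.3%), in 2 of the 7 called higher, in 6.49% of all promoters and in 9.04% of those of tested genes. A match describes the letters in this window and says nothing of binding.

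Large rises are given here for genes chosen to have groups apart and a call with any 1 library left out, so neither is a result. They are not the largest of all, since SYN3 (2.61) and SNAPC1 (1.86), among others, rose more than the first of them. TFPI, the inhibitor of tissue factor in blood clotting, stood at 9.19, 5.43 and 6.26 TPM in the libraries labelled control and 24.3, 32.8 and 24.4 TPM in those labelled DCBLD2. Its log2 fold change was 1.84 ± 0.18 (adjusted p = 0.000675). The developmental zinc-finger factor SALL3 went from 9.79, 10.03 and 12.4 to 31.9, 38.9 and 32.3 TPM (1.59 ± 0.12, adjusted p = 0.000176), and replicates of each group lay close together. VGF, a precursor of secreted neuropeptides, went from 18.7, 31.0 and 36.2 to 64.5, 111 and 75.2 TPM (1.53 ± 0.24), with a wide spread inside both groups. The phospholipase C isoform PLCB4 went from 11.6, 5.24 and 9.24 to 29.4, 29.6 and 19.98 TPM (1.63 ± 0.23). The orphan nuclear receptor NR0B1, a repressor of transcription, went from 2.72, 4.34 and 4.99 to 9.48, 14.57 and 13.6 TPM (1.62 ± 0.23).

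The other large rises concerned genes of low level. CPT1C, the brain form of carnitine palmitoyltransferase, had 8 reads over the libraries labelled control and 212 over those labelled DCBLD2. This is a ratio of 30.8 per read sequenced, with an exact 95% counting interval of 15.3 to 72.2 that covers counting error only. The neuronal tubulin TUBB4A went from 0.152, 1.09 and 0.676 to 4.47, 2.197 and 3.08 TPM (2.28 ± 0.45). Among extracellular proteins, the bone morphogenetic protein BMP6 rose by 1.81, the thrombospondin THBS4 by 1.78 and the metalloprotease ADAMTS1 by 1.73 on the log2 scale. The neuronal splicing regulator NOVA2 rose by 1.76, the endocytic adaptor STON1 by 1.67, the leptin receptor LEPR by 1.47 and the ephrin EFNA3 by 1.46. For these 7 genes the group means lay between 0.666 and 1.79 TPM in control and between 2.09 and 6.17 TPM in DCBLD2. LEPR is the one whose rise shrank most with the GC and length offset, to 1.02 (adjusted p = 0.00300).

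Large falls were chosen in the same way, and NRP1 (-3.17) and PITX1 (-2.93) fell more than most of them. VIPR1, a receptor of vasoactive intestinal peptide, stood at 125, 75.3 and 85.4 TPM in the libraries labelled control and 27.2, 26.5 and 22.9 TPM in those labelled DCBLD2. Its log2 fold change was -1.91 ± 0.18 (adjusted p = 0.000490). NPAS2, a clock transcription factor, went from 39.7, 28.7 and 33.7 to 8.24, 7.59 and 8.36 TPM (-2.07 ± 0.16, adjusted p = 0.000176). The replicates labelled DCBLD2 differed little, and all lay far below the controls. SERINC2, a serine incorporator family membrane protein, went from 30.2, 22.3 and 18.9 to 6.38, 4.18 and 6.99 TPM (-2.02 ± 0.24). The lipoprotein receptor LSR, a protein of tricellular junctions, went from 15.4, 7 and 6.94 to 2.19, 3.29 and 1.94 TPM (-2.17 ± 0.27), with labelled control replicate 1 well above the other controls.

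IHO1, which meiotic cells need to form DNA breaks, was nearly absent from the libraries labelled DCBLD2. It had 260 reads over the libraries labelled control and 2 over the others. Scaled to the reads sequenced the ratio was 112, and its exact interval for counting error ran from 30.7 to 929. TSTD1, a small protein with a rhodanese-type domain, went from 8.36, 3.84 and 4.47 to 0.515, 0.704 and 0.478 TPM (-3.32 ± 0.47). The pore-forming effector of pyroptosis GSDMD went from 2.45, 1.59 and 2.75 to 0.211, 0.606 and 0.431 TPM (-2.45 ± 0.40). The transporter SLC37A2 fell by 2.10, the complement-related protease C1RL by 2.07 and the pseudokinase PRAG1 by 2.01 on the log2 scale. FAM83H, a protein that organises keratin filaments, had a log2 fold change of -1.98. ARPIN, an inhibitor of the Arp2/3 complex, fell by 1.92, and the hyaluronan receptor LAYN by 1.90. PCDHB14 is described with the protocadherins below.

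Some of the most abundant transcripts also differed, by smaller amounts. FTL, the ferritin light chain, went from 1845, 1852 and 1799 to 2404, 3011 and 2901 TPM (0.59 ± 0.11, adjusted p = 0.00825). ANXA2, a calcium-dependent membrane-binding protein, went from 1709, 1775 and 1686 to 1221, 1107 and 1172 TPM (-0.57 ± 0.10, adjusted p = 0.00644). Groups did not overlap for either. The cytoplasmic actin ACTG1 (0.46), the nucleolar protein NPM1 (0.38) and NACA (0.34), which guards nascent chains at the ribosome, rose. The myosin light chain MYL6 (-0.48), the calpain subunit CAPNS1 (-0.44) and the actin crosslinker ACTN4 (-0.37) fell. With the GC and length offset ACTN4 was not called (-0.21, adjusted p = 0.0686). NPM1, MYL6, CAPNS1 and ACTN4 lost their calls without labelled DCBLD2 replicate 1 (adjusted p = 0.0528 to 0.146), FTL, ACTG1, NPM1, MYL6, CAPNS1 and ACTN4 without labelled DCBLD2 replicate 2 (0.0529 to 0.148), ACTG1 without labelled DCBLD2 replicate 3 (0.0881), ACTG1, NPM1 and MYL6 without labelled control replicate 1 (0.0508 to 0.0621), NPM1 without labelled control replicate 2 (0.0757), and ACTG1 without labelled control replicate 3 (0.0705). NACA kept its call without labelled control replicate 1 and lost it without any of the other 5 libraries.

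Gene lists were then counted, as higher and lower calls. Over all tested genes the median log2 fold change was 0.0047. Among 1818 list entries tested, 234 were higher and 207 lower, beside 1313 and 1356 of all 12773 tested genes. Each list count is to be read beside the 10.3% and 10.6% of all tested genes called higher and lower. By the difference between the percentages called, the most one-sided lists held chaperones, clock genes and mitotic genes on the higher side and cadherins, growth factors and cancer-testis antigens on the lower side. The counts describe the lists, whose members were chosen with earlier results of these libraries known. In every list the fewest calls in each direction were reached without labelled DCBLD2 replicate 1 or 2. With 1 library left out, each direction taken by itself, the fewest higher and fewest lower members were 0 and 0 for DNA repair, the respiratory chain, the proteasome and lung lineage factors, 1 and 0 for nucleotide synthesis, lysosomes, receptor tyrosine kinases and amino acid transporters, and 0 and 1 for the IGF axis, channels and prostaglandin genes. They were 0 and 2 for glycosyltransferases, 0 and 3 for growth factors and for JAK and STAT genes, 1 and 1 for the PI3K path and G protein signalling, 1 and 2 for integrins, 1 and 3 for the WNT path and 1 and 4 for homeobox factors. They were 2 and 1 for proteoglycans, Notch and AP-1, 2 and 2 for splicing, 2 and 4 for the TGF-beta path, 3 and 6 for neuronal genes, 4 and 2 for amino acid synthesis and 0 and 0 for the TNF superfamily.

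The balance between higher and lower calls turned in some lists with 1 library left out. Without labelled DCBLD2 replicate 1 it was 2 higher and 3 lower for DNA repair. It was 2 and 1 for proteoglycans and 1 and 0 for nucleotide synthesis without labelled DCBLD2 replicate 2. The IGF axis and the prostaglandin list each had 0 and 1 without labelled DCBLD2 replicate 1, and again without replicate 2. Leaving out labelled DCBLD2 replicate 3 gave 1 and 2 for the IGF axis, 4 and 3 for nucleotide synthesis and 6 and 5 for splicing. Leaving out labelled control replicate 1 gave 7 and 3 for the PI3K path, 8 and 5 for JAK and STAT genes, 6 and 3 for channels and 2 and 3 for the proteasome. Leaving out labelled control replicate 2 gave 4 and 3 for the PI3K path and 1 and 3 for amino acid transporters, and leaving out labelled control replicate 3 gave 3 and 4 for chromatin regulators and 3 and 2 for nucleotide synthesis. The turns of the endoplasmic reticulum and TGF-beta lists stand with those lists.

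The GC and length offset moved a direction by over 1.5 times, or changed a balance, in the following lists beside those whose offset counts stand with them. Higher and lower members were then 14 and 4 for COPI and COPII, 15 and 2 for heat-shock proteins, 8 and 2 for metal genes, 10 and 7 for lysosomes and 6 and 3 for the IGF axis. They were 2 and 6 for growth factors, 1 and 7 for cancer-testis antigens, 2 and 3 for the TNF superfamily, 3 and 6 for channels, 9 and 4 for G protein signalling, 4 and 3 for the respiratory chain and 0 and 1 for lung lineage factors.

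**Figure D3:**
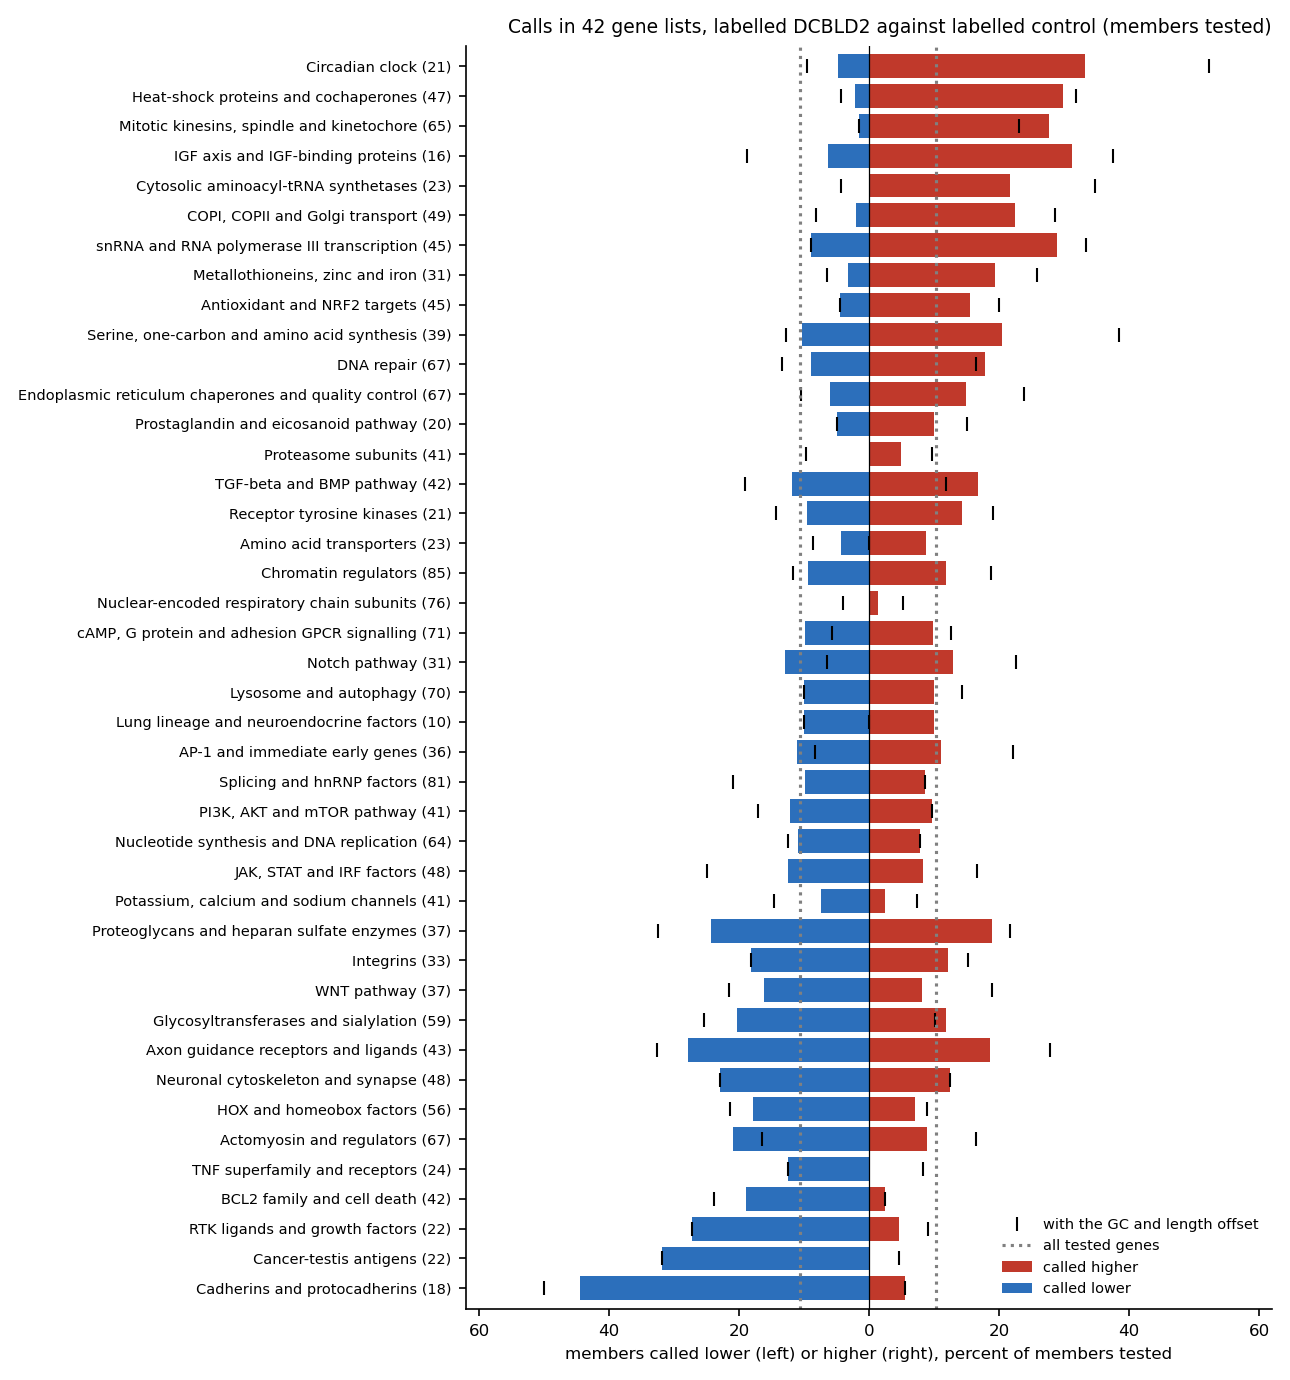
Percent of tested members called higher (right, red) or lower (left, blue) in 42 gene lists, with the number tested in parentheses, dotted lines at the 10.3% and 10.6% of all tested genes, and black ticks for the GC and length offset. The clock and heat-shock lists reach 33.3% and 29.8% on the higher side, and the cadherin list 44.4% on the lower side.

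Of 47 heat-shock proteins and cochaperones tested, 14 were higher, 1 was lower and 32 were not called. Their median log2 fold change was 0.16 and their median GC content 45.2%. HSP90AA1, the inducible cytosolic HSP90, went from 825, 483 and 849 to 1751, 2225 and 1484 TPM (1.34 ± 0.19, adjusted p = 0.00322). No library labelled DCBLD2 came near the controls, of which replicate 2 was the lowest. CHORDC1, an HSP90 cochaperone whose promoter is shown above, went from 32.8, 34.5 and 38.1 to 61.8, 60.3 and 50.6 TPM (0.84 ± 0.12, adjusted p = 0.00314). HSPH1, an HSP110 that exchanges nucleotide on HSP70, went from 37.5, 29.2 and 40.9 to 67.2, 73.0 and 55.2 TPM (0.82 ± 0.12), and its relative HSPA4 went from 63.6, 45.9 and 69.9 to 102, 111 and 84.9 TPM (0.72 ± 0.13). The constitutive HSP70, HSPA8, went from 1725, 2072 and 2315 to 2849, 3105 and 2724 TPM (0.50 ± 0.12). Groups were apart for all 5. The inducible pair HSPA1A (0.47) and HSPA1B (0.50) rose as well, but the 2 genes are near-identical and share reads. In mitochondria, HSPD1 (0.62, with overlapping TPM values) and HSPA9 (0.51) rose. The remaining higher members were HSPA4L, HSPA13, DNAJB4, DNAJB5 and the chaperonin subunit CCT8, and the lower one was the HSP70 exchange factor BAG1 (-0.39). The higher members numbered 3 without labelled DCBLD2 replicate 2, 6 without its replicate 1, and 9 each without labelled DCBLD2 replicate 3 or labelled control replicate 3. With the offset CHORDC1 rose less (0.39, adjusted p = 0.0489), and HSPA13, HSPA4L and DNAJB4 were not called. DNAJB4 lost its call without labelled DCBLD2 replicate 1, 2 or 3 (adjusted p = 0.0575, 0.0977 and 0.0553). CCT8 lost it without labelled DCBLD2 replicate 1 or 2 or labelled control replicate 2 (0.083, 0.0997 and 0.0663). DNAJB5 lost it without labelled DCBLD2 replicate 2 or 3 or labelled control replicate 3 (0.0843, 0.0785 and 0.067). The leave-out fits of HSPA4L and HSPA13 are not reported here. HSPA8, HSPA1A, HSPD1, HSPA9 and BAG1 lost their calls without labelled DCBLD2 replicate 1 (adjusted p = 0.0580 to 0.107), HSPA4, HSPA8, HSPA1A, HSPA1B, HSPD1, HSPA9 and BAG1 without labelled DCBLD2 replicate 2 (0.0513 to 0.148), HSPA1A, HSPA1B and BAG1 without labelled DCBLD2 replicate 3 (0.0613 to 0.105), HSPA1A without labelled control replicate 1 (0.0754), BAG1 without labelled control replicate 2 (0.0739), and HSPA1A, HSPA1B and BAG1 without labelled control replicate 3 (0.0682 to 0.121).

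Of 21 circadian clock genes tested, 7, all repressors of the loop, were higher and 1, an activator, was lower (median log2 fold change 0.50), and the median GC content was 51.1%. PER1 went from 20.4, 17.3 and 14.5 to 29.9, 39.7 and 32.2 TPM (1.03 ± 0.14, adjusted p = 0.00256). CIART, a repressor of CLOCK and BMAL1, went from 14.8, 11.8 and 12.4 to 23.1, 31.0 and 24.7 TPM (1.001 ± 0.14, adjusted p = 0.00312). The nuclear receptor NR1D1, also known as REV-ERB alpha, went from 7.22, 5.88 and 5.58 to 9.52, 14.9 and 14.0 TPM (1.04 ± 0.19). These 3 had groups apart, as did PER3 (0.77), CRY1 (0.52), CRY2 (0.50) and NR1D2 (0.71). The repressors BHLHE40 (0.80, adjusted p = 0.0504) and BHLHE41 (0.38, adjusted p = 0.105) did not pass the test. The lower gene was NPAS2, whose values are given above. Its paralogue CLOCK went from 4.07, 2.03 and 4.90 to 5.51, 7.61 and 3.90 TPM, with overlapping groups and an adjusted p of 0.0627, and their partner BMAL1 went from 5.99, 5.10 and 7.80 to 6.38, 4.71 and 6.18 TPM (adjusted p = 0.734). The output factors DBP (0.75, adjusted p = 0.0722) and TEF (0.51, adjusted p = 0.0647) did not pass the test. With the offset 11 were higher and 2 lower. With 1 library left out the higher members numbered 2 to 10, the fewest 2 without labelled DCBLD2 replicate 2. The hour at which each library was harvested is not in the labels. CRY2 and NR1D2 lost their calls without labelled DCBLD2 replicate 1 (adjusted p = 0.0522 to 0.0682), NR1D1, PER3, CRY1, CRY2 and NR1D2 without labelled DCBLD2 replicate 2 (0.0505 to 0.142), CRY2 and NR1D2 without labelled DCBLD2 replicate 3 (0.0592 to 0.0642), and CRY2 and NR1D2 without labelled control replicate 3 (0.0705 to 0.0759).

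Mitotic genes were called higher far more often than lower, and their calls leaned on single libraries. Of 65 kinesins, spindle and kinetochore genes, 18 were higher and 1 lower (median log2 fold change 0.17). Without labelled DCBLD2 replicate 1 or 2, 1 was higher. The median stayed between 0.0808 and 0.273 with any 1 library left out. Members of this list had a median GC content of 42.3%, the lowest of the 42 lists, and with the offset 15 were higher and 1 lower. DLGAP5, which bundles spindle microtubules, went from 19.7, 15.6 and 22.8 to 37.0, 39.4 and 27.9 TPM (0.89 ± 0.16, adjusted p = 0.00710). CDC20, the activator of the anaphase-promoting complex, went from 259.6, 435 and 443 to 658, 657 and 623 TPM (0.75 ± 0.18, adjusted p = 0.0197). Both had groups apart, as did the cytokinesis scaffold ANLN (0.72) and the kinetochore subunit NUF2 (0.52). The large kinetochore proteins CENPF (0.95) and CENPE (0.92) had the highest fold changes of the list. The lower member was CENPN (-0.39). Of 64 nucleotide synthesis and replication genes, 5 (7.81%) were higher and 7 (10.9%) lower, near the shares of all tested genes. The former included the purine enzymes PPAT (0.92) and PAICS (0.37), and the latter the dUTPase DUT (-0.53) and the flap endonuclease FEN1 (-0.65). With the offset PAICS was not called (adjusted p = 0.491). Of 67 DNA repair genes, 12 were higher, with LIG3 at 0.52 and RAD54B at 0.64, and 6 lower, with the histone H2AX at -0.64 and the alkyl-guanine repair enzyme MGMT at -0.82. CDC20, ANLN, NUF2, CENPF, CENPE, PAICS, RAD54B and MGMT lost their calls without labelled DCBLD2 replicate 1 (adjusted p = 0.0506 to 0.0906), CDC20, ANLN, NUF2, CENPF, CENPE, CENPN, PAICS, DUT, FEN1, LIG3, RAD54B, H2AX and MGMT without labelled DCBLD2 replicate 2 (0.0617 to 0.160), CENPN without labelled DCBLD2 replicate 3 (0.0780), and CENPE, CENPN and H2AX without labelled control replicate 3 (0.0540 to 0.0886).

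**Figure D4:**
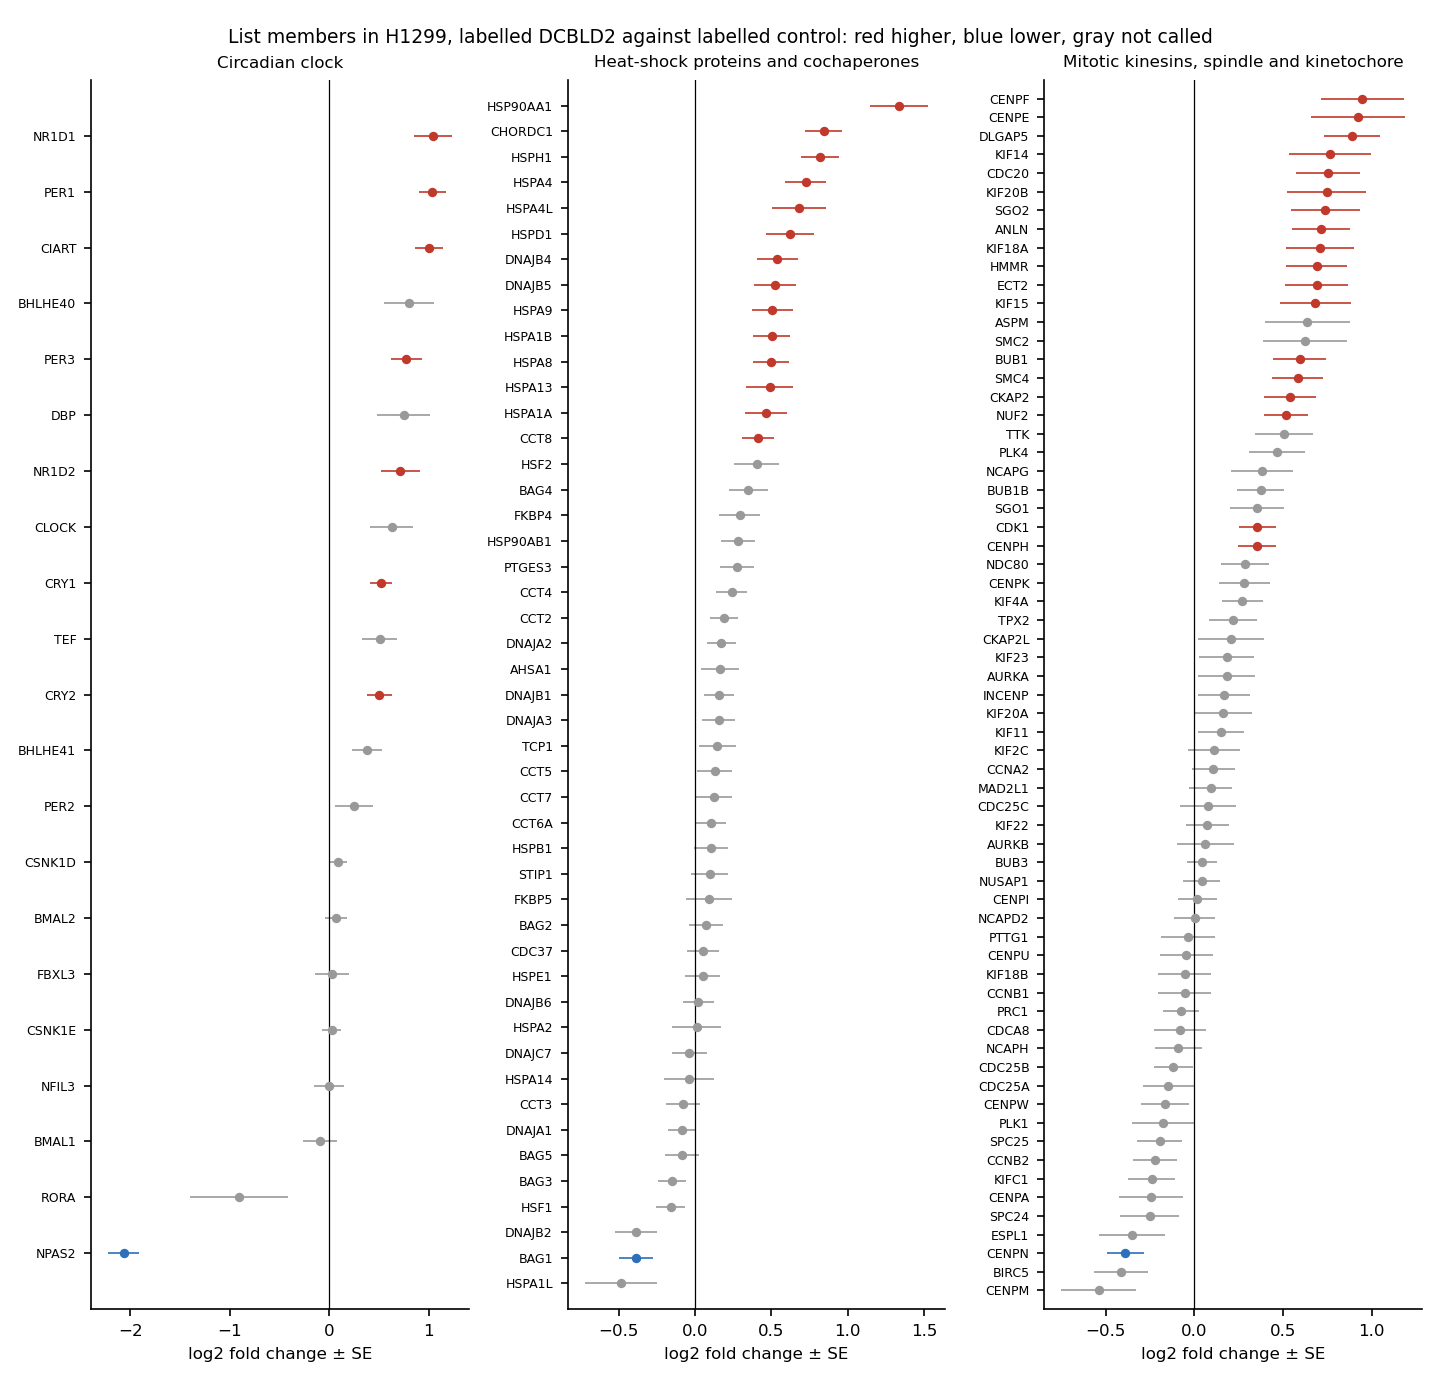
Log2 fold change ± SE of every tested member of the clock, heat-shock and mitotic lists, with each panel on its own x axis. Red points were called higher, blue lower and gray not called. NPAS2 at -2.07 is the one called member on the left of the clock panel, and HSP90AA1 at 1.34 leads the heat-shock panel.

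Transport genes of the secretory path were called higher more often than lower, and the balance of the endoplasmic reticulum list rested on single libraries. Of 67 endoplasmic reticulum chaperones and quality control genes, 10 were higher and 4 lower (median log2 fold change 0.20). Without labelled DCBLD2 replicate 3 it was 4 higher and 5 lower. With the offset 16 were higher and 7 lower, and the median was 0.09. HSPA5 and HSP90B1 led this list, and PDIA5, a disulfide isomerase, went from 11.6, 12.5 and 14.8 to 24.2, 28.2 and 22.1 TPM (0.93 ± 0.13, adjusted p = 0.00316). DNAJC10, a reductase that aids degradation of misfolded protein, rose by 0.86. SELENOS, a selenoprotein of the degradation path, fell (-0.63). Of 49 COPI, COPII and Golgi transport genes, 11 were higher and 1 lower (median log2 fold change 0.13). The cargo receptor LMAN1 went from 35.5, 22.7 and 31.8 to 55.5, 77.8 and 54.3 TPM (1.05 ± 0.16), and the tether USO1 went from 33.4, 18.7 and 29.03 to 50.2, 64.1 and 44.2 TPM (0.96 ± 0.18). Groups were apart for both, with labelled control replicate 2 lowest and labelled DCBLD2 replicate 2 highest. TMED5 (0.58) and the coat subunit SEC24A (0.68) also rose. With the offset TMED5 was not called (adjusted p = 0.199) and SEC24A stood at 0.33. Fewest of these lists were called without labelled DCBLD2 replicate 2, with 3 and 2 higher. DNAJC10, SELENOS, USO1, TMED5 and SEC24A lost their calls without labelled DCBLD2 replicate 2 (adjusted p = 0.0528 to 0.0911).

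Amino acid synthesis genes changed in both directions, and the tRNA synthetases called were all higher. Of 39 serine, one-carbon and amino acid synthesis genes, 8 were higher and 4 lower (median 0.17), and with the offset 15 and 5. ASS1, which makes argininosuccinate, went from 1.13, 1.02 and 1.01 to 2.61, 2.81 and 3.24 TPM (1.49 ± 0.26, adjusted p = 0.00684). The mitochondrial folate enzyme MTHFD2 rose by 0.60, the cysteine-forming CTH by 0.66 and the branched-chain aminotransferase BCAT1 by 0.91. MAT2A, which makes S-adenosylmethionine, went from 159.7, 142 and 150.4 to 75.8, 77.4 and 54.0 TPM (-1.21 ± 0.12, adjusted p = 0.000567). PYCR3, a proline-forming reductase, went from 11.5, 9.90 and 12.5 to 6.35, 3.33 and 4.54 TPM (-1.29 ± 0.21). Groups were apart for ASS1, MAT2A and PYCR3. Of 23 cytosolic aminoacyl-tRNA synthetases, 5 were higher and 0 lower (median log2 fold change 0.26), and with the offset 8 and 1. The leucyl enzyme LARS1 went from 70.8, 42.2 and 70.8 to 118, 123 and 92.2 TPM (0.84 ± 0.17), and EPRS1, which charges glutamate and proline tRNAs, rose by 0.95. The others were YARS1, IARS1 and FARSB. Without labelled DCBLD2 replicate 2, none of the synthetases was called by edgeR. Of 23 amino acid transporters, 2 were higher, SLC36A4 (0.75) and SLC7A2 (0.43), and 1 lower, SLC43A2 (-0.54). With the offset the list had 0 higher and 2 lower members, and none of these 3 was called (adjusted p of 0.210, 0.555 and 0.0740). MTHFD2, BCAT1, EPRS1, YARS1, IARS1, FARSB, SLC7A2 and SLC43A2 lost their calls without labelled DCBLD2 replicate 1 (adjusted p = 0.0521 to 0.132), MTHFD2, CTH, BCAT1, LARS1, EPRS1, YARS1, IARS1, FARSB, SLC7A2 and SLC43A2 without labelled DCBLD2 replicate 2 (0.0505 to 0.154), CTH, YARS1, SLC7A2 and SLC43A2 without labelled DCBLD2 replicate 3 (0.0506 to 0.0788), FARSB, SLC7A2 and SLC43A2 without labelled control replicate 1 (0.0503 to 0.0629), YARS1, IARS1 and SLC7A2 without labelled control replicate 2 (0.0502 to 0.104), and BCAT1, SLC7A2 and SLC43A2 without labelled control replicate 3 (0.0577 to 0.0806).

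The machinery of small nuclear RNA and RNA polymerase III transcription was higher in 13 and lower in 4 of 45 tested members, with a median of 0.05. Beside SNAPC1, POLR3G, the polymerase III subunit that replaces POLR3GL in growing and stem cells, went from 11.97, 14.8 and 19.3 to 29.2, 31.97 and 25.3 TPM (1.13 ± 0.17, adjusted p = 0.00356). INTS13, a subunit of the Integrator complex that ends small nuclear RNAs, went from 30.9, 24.0 and 36.7 to 52.9, 69.7 and 47.9 TPM (0.90 ± 0.15). BDP1, a part of the initiation factor TFIIIB, rose by 1.04. Among the lower members were POLR3C, another polymerase III subunit, and the TFIIIB subunit BRF1. BRF1 lost its call without labelled DCBLD2 replicate 2 (adjusted p = 0.0567). Of 81 splicing and hnRNP factors, 7 (8.64%) were higher and 8 (9.88%) lower, near the shares of all tested genes, and with the offset 7 and 17. The lower ones included 5 SR proteins, with SRSF6 at -0.73, SRSF2 at -0.59 and SRSF3 at -0.51, whereas SRSF4 (0.52) and SRSF11 (0.63) were higher. HNRNPM went from 249.9, 285 and 294 to 205, 137 and 145 TPM (-0.76 ± 0.14), and the cold-inducible RBM3 fell by 0.48. SF3B1, the target of splicing inhibitors, had overlapping groups and a log2 fold change of 0.70. With 1 library left out, 4 to 13 of the polymerase III list were higher, the fewest 4 without labelled DCBLD2 replicate 2. BDP1, SRSF11 and SF3B1 lost their calls without labelled DCBLD2 replicate 1 (adjusted p = 0.0567 to 0.104), BDP1, SRSF2, SRSF3, SRSF11, RBM3 and SF3B1 without labelled DCBLD2 replicate 2 (0.0531 to 0.172), SRSF2 and SF3B1 without labelled DCBLD2 replicate 3 (0.0613 to 0.0617), and BDP1, SRSF2 and SF3B1 without labelled control replicate 3 (0.0580 to 0.0942).

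Chromatin regulators were near the background, with 10 higher and 8 lower of 85, against 16 and 10 with the offset. The lower members included the Polycomb proteins RING1 (-0.65), CBX2 (-0.72), CBX6 (-0.61) and CBX8 (-0.69) and the maintenance factor of DNA methylation UHRF1 (-0.54). TPM values overlapped for CBX8, and with the offset CBX2 was not called (adjusted p = 0.0546). All of these were picked from the lower side, and the 10 higher members are not named. Polycomb genes were not tested as a set. Without labelled DCBLD2 replicate 2, none of the list was called in either direction. Cancer-testis antigens, which are silent in most adult tissues outside the germ line, were lower in 7 of 22 and higher in 0, with a median of -0.23. MAGEA1 went from 35.4, 38.4 and 44.2 to 17.7, 11.4 and 13.9 TPM (-1.47 ± 0.17, adjusted p = 0.00154). PASD1 went from 13.1, 11.7 and 13.5 to 5.49, 5.39 and 4.30 TPM (-1.35 ± 0.13, adjusted p = 0.000538). PRAME, which had the highest level of those named, went from 154, 175 and 189 to 115, 122 and 115 TPM (-0.58 ± 0.09), and MAGEA10 fell by 0.74. Groups were apart for all 4, and 4 to 8 members of the list were lower with any 1 library left out. The MAGEA genes are close copies, so their reads may be split between them. Of 56 HOX and homeobox factors, 10 were lower and 4 higher, with a median of -0.16. PITX1 led the falls. DLX1 went from 11.97, 11.6 and 13.5 to 6.96, 6.78 and 6.30 TPM (-0.97 ± 0.13), and HOXA7 went from 27.5, 25.5 and 27.4 to 17.8, 13.6 and 15.5 TPM (-0.79 ± 0.13). HOXA10, HOXB7, HOXC9, HOXC10 and HOXD9 were lower and HOXB8 higher. TGIF1, a repressor of retinoid and SMAD transcription, went from 68.7, 85.6 and 85.2 to 134, 153 and 135 TPM (0.79 ± 0.12). Of 10 lung lineage and neuroendocrine factors, SOX9 fell (-0.48) and LAMP3 rose (0.53), the latter not with the offset (adjusted p = 0.0567). CBX2, CBX8, HOXC10, HOXD9 and LAMP3 lost their calls without labelled DCBLD2 replicate 1 (adjusted p = 0.0515 to 0.0938), RING1, CBX2, CBX6, CBX8, UHRF1, HOXA10, HOXC9, HOXC10, HOXD9, HOXB8, SOX9 and LAMP3 without labelled DCBLD2 replicate 2 (0.0529 to 0.155), CBX2, CBX8, HOXA10, HOXC10 and LAMP3 without labelled DCBLD2 replicate 3 (0.0627 to 0.134), LAMP3 without labelled control replicate 1 (0.0918), CBX2, CBX8 and LAMP3 without labelled control replicate 2 (0.0546 to 0.0989), and CBX2, CBX8, HOXA10, HOXC10, HOXD9 and LAMP3 without labelled control replicate 3 (0.0508 to 0.103).

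Adhesion genes held the list with the highest share of falls. Of 18 cadherins and protocadherins, 8 were lower and 1 higher, with a median of -0.46, and with 1 library left out 2 to 7 were lower, the fewest 2 without labelled DCBLD2 replicate 2. PCDHB14, a clustered protocadherin, went from 3.54, 2.87 and 2.93 to 0.755, 0.725 and 0.705 TPM (-2.04 ± 0.23, adjusted p = 0.00132), with replicates close together in both groups. PCDHB2 went from 5.25, 4.46 and 5.73 to 2.22, 3.62 and 2.69 TPM (-0.92 ± 0.16). PCDHGC3 (-0.63), PCDH7 (-0.59) and the large cadherins FAT3 (-1.47) and CELSR3 (-0.41) were lower, and FAT4 (0.70) was higher. The clustered protocadherins lie next to each other on chromosome 5, 140806929 to 141512979 (GRCh38). Counted over that whole interval, a window chosen after its values were seen, 10 of 23 tested genes were lower and 0 higher, with a median of -0.62. Genes of the alpha and of the gamma cluster share their last exons, so their counts are not separate measurements. Of 33 integrins and adhesion partners, 4 were higher and 6 lower, with ITGB1 at 0.56 and PTK2, the focal adhesion kinase, at 0.49 on one side. The adaptor BCAR1 went from 141, 120.2 and 142 to 88.6, 69.8 and 81.5 TPM (-0.79 ± 0.11), and the actin linker VCL went from 194, 166 and 176 to 127, 136 and 123 TPM (-0.48 ± 0.09). Of 37 proteoglycans and their enzymes, 7 were higher and 9 lower, with HSPG2 and VCAN (0.94) among the former and the sulfotransferase CHST3 (-0.75) and the heparan sulfate polymerase EXT1 (-0.49) among the latter. CHST15, another sulfotransferase, went from 0.140, 0.0220 and 0.116 to 0.578, 0.852 and 0.456 TPM (3.38 ± 0.55), at low level. FAT3, CELSR3, FAT4, ITGB1, PTK2 and VCAN lost their calls without labelled DCBLD2 replicate 1 (adjusted p = 0.0509 to 0.0773), PCDHGC3, PCDH7, FAT3, CELSR3, FAT4, ITGB1, PTK2, VCAN and EXT1 without labelled DCBLD2 replicate 2 (0.0531 to 0.134), PCDH7, FAT3 and ITGB1 without labelled DCBLD2 replicate 3 (0.0510 to 0.0911), FAT3 without labelled control replicate 1 (0.0639), and PCDH7, FAT3, FAT4 and ITGB1 without labelled control replicate 3 (0.0678 to 0.0879).

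Of 67 actomyosin genes and their regulators, 6 were higher and 14 lower (median log2 fold change -0.14). This balance moved with the GC and length offset, under which 11 were higher and 11 lower. PDLIM1, a LIM protein on actin filaments, went from 19.1, 21.2 and 20.9 to 8.39, 7.48 and 6.75 TPM (-1.45 ± 0.14, adjusted p = 0.000567). The CDC42 effector CDC42EP3 went from 126, 107 and 110.3 to 80.6, 75.6 and 72.4 TPM (-0.75 ± 0.11), and CDC42EP2 fell by 0.86. The kinase ROCK1 (0.76) and the formin DIAPH2 (0.75) were higher, the latter not called with the offset (adjusted p = 0.174). The fewest lower members were 3, without labelled DCBLD2 replicate 2. ROCK1 lost its call without labelled DCBLD2 replicate 1 (adjusted p = 0.0761), ROCK1 and DIAPH2 without labelled DCBLD2 replicate 2 (0.155 to 0.199), ROCK1 and DIAPH2 without labelled DCBLD2 replicate 3 (0.0579 to 0.0777), DIAPH2 without labelled control replicate 2 (0.0925), and ROCK1 and DIAPH2 without labelled control replicate 3 (0.0736 to 0.0852).

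Guidance genes, which include the neuropilins, changed in both directions. Of 43 axon guidance receptors and ligands, 8 were higher and 12 lower. Falls included NRP1 and 4 plexins, the receptors that signal for semaphorins. PLXNA1 went from 69.6, 50.9 and 52.4 to 29.8, 25.5 and 28.9 TPM (-1.03 ± 0.14, adjusted p = 0.00263), and groups were apart. PLXNA2 (-2.40) was at or under 0.285 TPM in every library, PLXNB1 fell by 0.75 and PLXNB2 by 0.53. The netrin and RGM receptor NEO1 fell by 1.56, and the ephrin receptors EPHA4 by 1.39 and EPHA10 by 1.59. The second neuropilin, NRP2, was higher (0.50), as were EPHA7 (1.305) and the semaphorins SEMA3C (0.66) and SEMA6A (0.61). Fewest were called without labelled DCBLD2 replicate 2, with 2 higher and 3 lower. Of 48 neuronal cytoskeleton and synapse genes, 6 were higher and 11 lower. MAPT, the microtubule protein tau, went from 2.69, 2.76 and 2.07 to 5.33, 6.48 and 6.13 TPM (1.13 ± 0.21), while SNAP25, a SNARE of vesicle fusion, went from 8.36, 7.08 and 7.15 to 3.502, 3.47 and 3.03 TPM (-1.18 ± 0.16). CNTNAP2, a neuronal adhesion protein, fell by 2.12 and stayed under 1 TPM. GRIN2B, SYN3 and NEFH had larger changes. NRP2, SEMA3C and SEMA6A lost their calls without labelled DCBLD2 replicate 1 (adjusted p = 0.0622 to 0.0723), PLXNB1, PLXNB2, NEO1, EPHA4, EPHA10, NRP2, EPHA7, SEMA3C and SEMA6A without labelled DCBLD2 replicate 2 (0.0506 to 0.154), EPHA4, NRP2, SEMA3C and SEMA6A without labelled DCBLD2 replicate 3 (0.0505 to 0.110), NRP2 without labelled control replicate 1 (0.0532), and NRP2, SEMA3C and SEMA6A without labelled control replicate 3 (0.0534 to 0.0981).

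Of 42 tested members of the TGF-beta and BMP path, 7 (16.7%) were higher and 5 (11.9%) lower, near the 10.3% and 10.6% of all tested genes, and with the offset 5 and 8. They were 2 and 4 without labelled DCBLD2 replicate 2, 3 and 6 without labelled DCBLD2 replicate 3 or labelled control replicate 3, and 6 and 7 without labelled control replicate 2. Among ligands TGFB2 was lower. Among receptors, TGFBR2 went from 25.8, 17.6 and 17.6 to 12.3, 11.4 and 10.8 TPM (-0.83 ± 0.15), and BMPR1B (0.61) and ACVR2B (0.53) were higher, though with the offset not called (adjusted p of 0.230 and 0.0739). The signal transducer SMAD3 went from 132, 109 and 96.9 to 67.8, 60.7 and 64.5 TPM (-0.72 ± 0.10, adjusted p = 0.00291). The inhibitors SMAD7 (-1.45) and PMEPA1 were lower, while SMURF2, a ubiquitin ligase of the path, went from 55.9, 48.2 and 60.6 to 101, 95.8 and 78.2 TPM (0.78 ± 0.11). Of 37 WNT path genes, 3 were higher and 6 lower, and with the offset 7 and 8. The secreted inhibitor DKK1 went from 23.3, 26.0 and 33.1 to 9.39, 5.93 and 7.13 TPM (-1.89 ± 0.20, adjusted p = 0.000805), the receptor FZD1 went from 32.9, 26.6 and 24.2 to 12.4, 10.2 and 11.6 TPM (-1.300 ± 0.14, adjusted p = 0.00101), and the inhibitor SFRP1 fell by 1.18. PTK7 (0.63), FZD4 (0.52) and KREMEN1 (0.48) were higher. Of 31 Notch path genes, 4 were higher and 4 lower, 12.9% each and near the shares of all tested genes, and with the offset 7 and 2. NOTCH3 went from 3.18, 2.89 and 2.52 to 3.96, 5.39 and 5.60 TPM (0.91 ± 0.17), NOTCH1 rose by 0.83, and the ligand JAG2 went from 4.88, 6.46 and 6.54 to 3.57, 2.72 and 3.02 TPM (-0.96 ± 0.17). Of the target genes, HES7 went from 8.98, 10.2 and 8.87 to 18.6, 22.1 and 21.5 TPM (1.20 ± 0.14), while HES1 (-0.92) was lower. BMPR1B, FZD4, KREMEN1, NOTCH1 and HES1 lost their calls without labelled DCBLD2 replicate 1 (adjusted p = 0.0521 to 0.0901), TGFBR2, BMPR1B, ACVR2B, FZD4, KREMEN1, NOTCH1 and HES1 without labelled DCBLD2 replicate 2 (0.0514 to 0.163), BMPR1B, ACVR2B, KREMEN1 and HES1 without labelled DCBLD2 replicate 3 (0.0617 to 0.0824), KREMEN1 and HES1 without labelled control replicate 1 (0.0507 to 0.0560), BMPR1B and ACVR2B without labelled control replicate 2 (0.0504 to 0.110), and BMPR1B, ACVR2B, FZD4, KREMEN1 and HES1 without labelled control replicate 3 (0.0566 to 0.0795).

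Receptor tyrosine kinases, with which DCBLD2 has been linked, were near the shares of all tested genes, with 3 of 21 (14.3%) higher and 2 (9.52%) lower. FGFR1 went from 46.3, 49.1 and 56.1 to 67.4, 69.5 and 60.9 TPM (0.40 ± 0.10), FGFR4 rose by 0.89, and the collagen receptor DDR1 (-0.65) and MST1R (-1.54) fell. Their ligands were lower in 6 of 22 (27.3%, against 10.6% of all tested genes) and higher in 1. The median log2 fold change of the ligand list was -0.0030. TGFA was among the falls. PTN, a heparin-binding growth factor, went from 17.0, 14.2 and 11.5 to 6.02, 6.54 and 5.60 TPM (-1.24 ± 0.18, adjusted p = 0.00329), PDGFC went from 28.1, 20.6 and 20.9 to 15.1, 14.4 and 12.4 TPM (-0.74 ± 0.14) and the neuregulin NRG2 fell by 0.89. In the IGF axis 5 of 16 were higher, with IGFBP2 at 0.76, GRB14 at 0.80 and PAPPA2 under 1 TPM, and 1 lower, IGFBP4. In the PI3K, AKT and mTOR path 4 of 41 (9.76%) were higher and 5 (12.2%) lower, near the shares of all tested genes. The catalytic subunit PIK3CD went from 6.24, 5.53 and 7.36 to 9.24, 11.4 and 10.1 TPM (0.73 ± 0.13), and the translation inhibitor EIF4EBP2 went from 26.82, 22.4 and 24.1 to 18.2, 15.03 and 14.7 TPM (-0.62 ± 0.11). The kinase AKT2 was lower (-0.36), and with the offset it was not called (adjusted p = 0.0760). FGFR1, FGFR4, DDR1, IGFBP2, GRB14, PAPPA2 and AKT2 lost their calls without labelled DCBLD2 replicate 1 (adjusted p = 0.0554 to 0.0924), FGFR1, FGFR4, DDR1, MST1R, PDGFC, IGFBP2, GRB14, PAPPA2 and AKT2 without labelled DCBLD2 replicate 2 (0.0506 to 0.135), FGFR4, IGFBP2 and PAPPA2 without labelled DCBLD2 replicate 3 (0.0505 to 0.122), IGFBP2 and PAPPA2 without labelled control replicate 1 (0.0520 to 0.0766), AKT2 without labelled control replicate 2 (0.0641), and FGFR4 and AKT2 without labelled control replicate 3 (0.0656 to 0.0709).

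Genes of cell death were lower in 8 of 42 and higher in 1. Beside GSDMD, BOK, a BAX-like effector, went from 38.3, 43.4 and 41.5 to 24.2, 21.6 and 26.5 TPM (-0.78 ± 0.13, adjusted p = 0.00561), and the necroptosis kinase RIPK1 went from 27.7, 20.9 and 23.3 to 18.7, 15.6 and 15.7 TPM (-0.54 ± 0.13). Of the BH3-only death proteins, BMF fell by 1.31 and PMAIP1 by 0.45, and HRK rose (0.94). The protective BCL2L1 fell by 0.37. Without labelled DCBLD2 replicate 2, 2 of the list were lower. Of 24 TNF superfamily members and receptors, 3 were lower and 0 higher. They were TNFRSF21, from 88.5, 49.4 and 45.3 to 26.7, 31.4 and 32.8 TPM (-1.01 ± 0.23), TNFRSF12A (-0.50) and TNFRSF1B (-0.82). Of 48 JAK, STAT, IRF and receptor genes, 4 (8.33%) were higher and 6 (12.5%) lower, near the shares of all tested genes, and with the offset 8 and 12. IL7R went from 2.34, 1.39 and 2.26 to 0.384, 0.123 and 0.226 TPM (-3.49 ± 0.33, adjusted p = 0.000538). The decoy receptor IL13RA2 rose by 0.56, while STAT6 and IL4R fell. Of 36 AP-1 and immediate early genes, 4 were higher and 4 lower, 11.1% each and near the shares of all tested genes. Their median log2 fold change was 0.21, and with the offset 8 were higher and 3 lower. The messenger RNA decay factor ZFP36L1 went from 207, 164 and 167 to 367, 438 and 424 TPM (1.16 ± 0.13, adjusted p = 0.00111), and ZFP36 went from 68.8, 65.2 and 62.4 to 112, 179 and 158 TPM (1.18 ± 0.16). KLF10, an early TGF-beta response factor, went from 40.5, 44.0 and 38.8 to 24.5, 27.7 and 26.3 TPM (-0.66 ± 0.11). BMF, HRK, BCL2L1 and TNFRSF21 lost their calls without labelled DCBLD2 replicate 1 (adjusted p = 0.0514 to 0.0971), RIPK1, BMF, PMAIP1, BCL2L1, TNFRSF21, TNFRSF12A, TNFRSF1B and IL13RA2 without labelled DCBLD2 replicate 2 (0.0692 to 0.183), RIPK1, BMF, PMAIP1 and TNFRSF1B without labelled DCBLD2 replicate 3 (0.0530 to 0.108), BMF and PMAIP1 without labelled control replicate 1 (0.0593 to 0.0766), TNFRSF1B without labelled control replicate 2 (0.0714), and PMAIP1, BCL2L1, TNFRSF12A and TNFRSF1B without labelled control replicate 3 (0.0517 to 0.126).

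Oxidant and metal genes were called higher more often than lower. Of 45 antioxidant and NRF2 target genes, 7 (15.6%) were higher and 2 (4.44%) lower, against 10.3% and 10.6% of all tested genes. The median log2 fold change of this list was -0.0019, so the list as a whole did not shift. OSGIN1 went from 22.6, 17.2 and 20.4 to 40.2, 64.1 and 55.1 TPM (1.33 ± 0.19, adjusted p = 0.00314). The thioredoxin reductase TXNRD1 went from 302, 225 and 268 to 412, 475 and 382 TPM (0.63 ± 0.12), and the glutathione reductase GSR went from 47.8, 52.4 and 56.1 to 68.8, 84.4 and 73.8 TPM (0.51 ± 0.10). Groups were apart for all 3, and GCLM, a gene of glutathione synthesis, rose by 0.58. KEAP1, the inhibitor of NRF2, fell (-0.36). With the offset neither GCLM nor KEAP1 was called (adjusted p of 0.250 and 0.0722). The fewest higher members were 1 without labelled DCBLD2 replicate 2. Of 31 metallothionein, zinc and iron genes, 6 were higher, FTL and the zinc sensor MTF1 (0.46) among them, and 1 lower, the ferrireductase STEAP3 (-0.51). None of them was called in either direction by edgeR without labelled DCBLD2 replicate 2. Of 70 lysosome and autophagy genes, 7 were higher and 7 lower. The autophagosome protein WIPI1 went from 17.1, 12.9 and 14.4 to 24.9, 30.1 and 28.5 TPM (0.88 ± 0.14), and the lysosomal channel MCOLN1 went from 21.3, 22.2 and 22.0 to 13.0, 14.1 and 15.2 TPM (-0.62 ± 0.13). The lysosomal protease CTSZ (-0.60) fell. GCLM, KEAP1 and MTF1 lost their calls without labelled DCBLD2 replicate 1 (adjusted p = 0.0593 to 0.0991), TXNRD1, GSR, GCLM, KEAP1, FTL, MTF1, STEAP3, MCOLN1 and CTSZ without labelled DCBLD2 replicate 2 (0.0524 to 0.127), KEAP1 without labelled control replicate 2 (0.0550), and KEAP1 and MTF1 without labelled control replicate 3 (0.0534 to 0.0803).

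Few respiratory chain, proteasome and channel genes were called. Of 76 nuclear-encoded respiratory chain subunits, 1 was higher, UQCRC2 (0.46), and 0 lower. Of 41 proteasome subunits, 2 were higher, the activator PSME4 (0.84) and PSMC6 (0.52), and 0 lower, against 4 and 4 with the offset. Of 41 ion channel genes, 1 was higher, CACNB4 (1.22), and 3 lower, among them CACNA1A (-1.42) and TRPV2 (-0.47). Among G protein, cAMP and adhesion receptor genes 7 of 71 were higher and 7 lower, 9.86% each and near the shares of all tested genes. The lysophosphatidic acid receptor LPAR3 went from 9.42, 7.83 and 9.97 to 15.7, 16.2 and 13.1 TPM (0.72 ± 0.12), and the phosphodiesterase PDE10A fell (-1.19) with overlapping TPM values. Of 59 glycosyltransferases, 7 were higher and 12 lower. The branching enzyme MGAT5B went from 14.5, 11.7 and 10.9 to 6.27, 5.72 and 6.62 TPM (-1.05 ± 0.15), and the linker enzyme of glycosaminoglycans B3GALT6 went from 29.1, 29.05 and 29.6 to 17.9, 13.3 and 15.8 TPM (-0.91 ± 0.13). Of 20 prostaglandin and eicosanoid genes, 2 were higher, PTGR2 (0.49) and PLA2G12A (0.43), and 1 lower, SLCO2A1. With the offset PLA2G12A was not called (adjusted p = 0.433). UQCRC2, PSMC6, TRPV2, PTGR2 and PLA2G12A lost their calls without labelled DCBLD2 replicate 1 (adjusted p = 0.0577 to 0.0843), UQCRC2, PSME4, PSMC6, CACNB4, TRPV2, PDE10A, PTGR2 and PLA2G12A without labelled DCBLD2 replicate 2 (0.0513 to 0.110), PLA2G12A without labelled DCBLD2 replicate 3 (0.0606), and PLA2G12A without labelled control replicate 3 (0.0888).

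By position, chromosome 15 stood lowest. Of its 409 tested genes, 98 (24.0%) were lower and 10 (2.44%) higher, and the median log2 fold change was -0.20, with 66.3% of the genes below 0. The next highest share of lower genes was 15.3%, on chromosome 20. The median deviation of the chromosome's genes was 0.134, 0.0774 and 0.132 in the libraries labelled control and -0.0959, -0.0791 and -0.121 in those labelled DCBLD2 (log2 CPM), so the groups were apart. With the GC and length offset 137 genes were lower and 12 higher, and the median was -0.24. The median lay between -0.22 and -0.17 with any 1 library left out. It was lower in the outer than in the inner part of the long arm, at -0.04 between 20 and 40 Mb, -0.14 between 40 and 60 Mb, -0.23 between 60 and 80 Mb and -0.29 between 80 and 100 Mb, beyond which only 8 genes were tested. With the offset these medians were -0.14, -0.25, -0.23 and -0.35, so the order of the middle parts did not hold. Chromosomes 13, 4 and 5 had the highest medians, at 0.17, 0.16 and 0.13. These fell to 0.08, 0.03 and 0.04 with the offset. A copy number was not measured here.

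**Figure D5:**
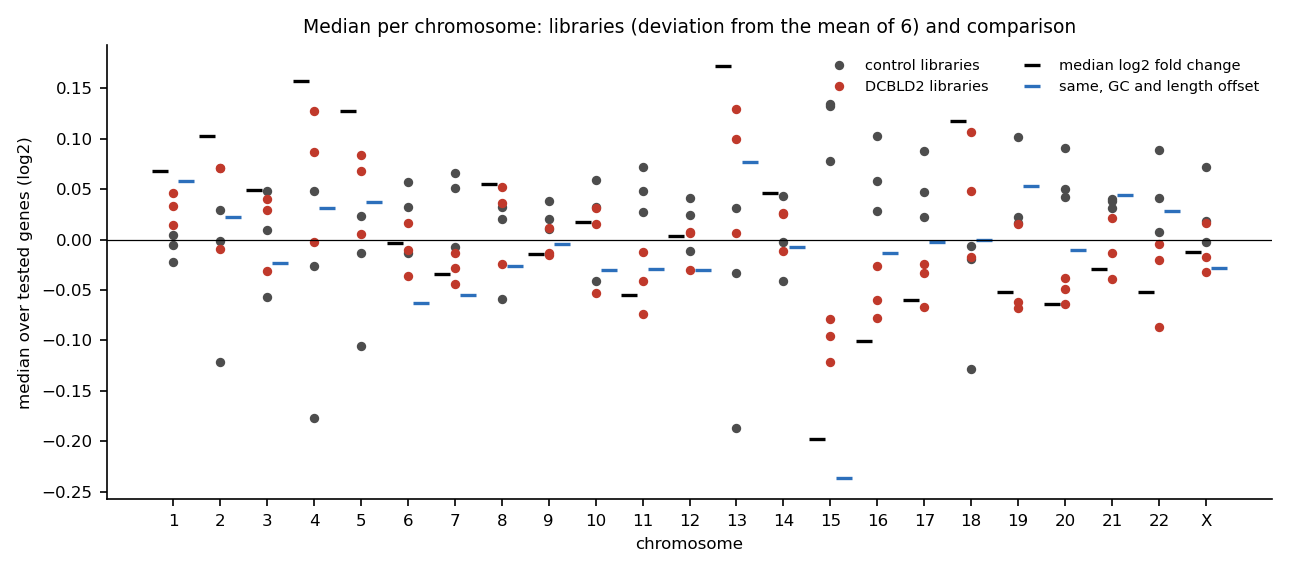
Median over the tested genes of each chromosome. Dots give the deviation of each H1299 library from the mean of the 6 (log2 CPM), black bars the median log2 fold change and blue bars the same with the GC and length offset. Chromosome 15 is the lowest by both bars, at -0.20 and -0.24, and its control and DCBLD2 dots lie on opposite sides of 0.

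Neighbouring genes also moved together in places. There were 18 runs of at least 4 adjacent tested genes called in 1 direction, 10 higher and 8 lower, the longest of 6 genes. Chromosome 5 held 5 of them, all higher, and chromosome 15 held 3, all lower. One run of 6 on chromosome 15, from 72751369 to 73994622, included NEO1 and the matrix crosslinking oxidase LOXL1 and had a median of -0.72. A run on chromosome 5, from 113513683 to 115626161, included the RNA helicase YTHDC2 and the ubiquitin ligase adaptor FEM1C, with a median of 0.76. Near the end of chromosome 16, from 89720400 to 89920977, 5 genes that included the repair gene FANCA and the melanocortin receptor MC1R were lower, with a median of -0.73. All 5 were called with the offset too, as were all 6 of the chromosome 15 run and 5 of the 6 from 113513683 on chromosome 5. Other runs lost more of their calls with it. A run on chromosome 19 kept 0 of 4 genes, 1 on chromosome 9 kept 1 of 4 and 1 on chromosome 11 kept 2 of 4. Every other run kept at least 3.

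Markers of other cells stayed low. Of 15 myeloid and macrophage markers, 12 were under 1 TPM in all 6 libraries, and the defining genes PTPRC and AIF1 were listed at 0, against at least 21.0 and 33.8 TPM in the THP-1 libraries. Their summed level was 143 to 145 TPM in the libraries labelled control and 201 to 205 TPM in those labelled DCBLD2, against 6273 to 8585 TPM in THP-1. Nearly all of it was CD68, a lysosomal glycoprotein that is not limited to macrophages. All 9 fibroblast markers were under 1 TPM, and 4 of 6 lymphocyte markers were at 0. The sum of 8 endothelial markers was 6.22 TPM in labelled control replicate 1 and 0.911 to 1.51 TPM in the other 5 libraries. Its part in results that rest on that library was not tested. Of the carcinoma markers, VIM, KRT18 and KRT8 were high in all 6 libraries, while CDH1 was listed at 0, EPCAM was under 1 TPM and KRT19 was at most 0.229 TPM. VIM does not set H1299 apart from THP-1, where it stood at 2191 to 2699 TPM. Some markers differed between the groups by edgeR's test. KRT18 (-0.56, adjusted p = 0.0147), MUC1 (-1.25, adjusted p = 0.00901) and TYROBP (-1.92, adjusted p = 0.0369) were lower, and CD68 (0.50, adjusted p = 0.00871) was higher. No other tested marker was called.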

How the data were processed

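RNA was extracted with Trizol, enriched for mRNA, fragmented and made into libraries with a NEBNext Ultra RNA kit, per the labels' protocols. The submitters' processing notes name fastp 0.18.0, Bowtie2 2.2.8, HISAT2, StringTie 1.3.1, RSEM and hg38. For the annotation release and the strand setting, no statement was found: not given in the sources used here. The authors deposited TPM and estimated counts per gene, and 12.5% to 13.1% of the counts per library were not whole. Symbols came from the file, which left 605 genes without one, and 98.9% of IDs matched GENCODE 29, from which GC content and length were taken.

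Counts were rounded and tested in the 6 H1299 libraries with edgeR 4.0.16 (R 4.3.3), TMM scaling, a minimum count of 10 and the quasi-likelihood test, at a Benjamini-Hochberg adjusted p of 0.05 over 12773 genes. The procedure was tested on simulated data. TPM describe levels, with limma 3.58.1 and DESeq2 1.42.0 as alternatives. Groups come from the labels. Members and lists were chosen with earlier results of these data known. Named genes were the 15 largest rises and 15 largest falls with at least 2 TPM in the higher group, groups apart, and a call by DESeq2 and with any 1 library left out, apart from genes described earlier, then the 10 most abundant called genes, up to 4 called members of each list and up to 2 of each run of neighbours. Other members of lists and all genes named that did not pass were chosen after their values were seen. Libraries were not paired by replicate number in the main test. Deviations of same-numbered libraries from their group mean correlated at -0.116, -0.283 and -0.273, and those of differently numbered ones at -0.159 to 0.359. Such deviations carry each library's GC trend and cannot show whether libraries were prepared together. Counting intervals are exact at 95% confidence. Some genes that meet the naming rule are not reported here.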

Additional observations from a re-analysis of the deposited data

How the results depend on the processing

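With 1 library left out, 184 to 1825 genes were higher and 330 to 1333 lower. limma called 811 genes higher on log2(TPM + 0.1) and 822 on log2(TPM + 1). At least 2-fold changes were made by 189 higher and 258 lower genes. DESeq2, its size factors in edgeR, a mean of at least 10 counts, no filter on low counts, a robust spread and the added GC and length offset kept both counts within 1.5 times. With the replicate number as a block, 981 genes were higher and 816 lower, and with block and offset together 1028 and 1207. Same-numbered libraries did not deviate together. Their deviations carry each library's GC trend, so they cannot show whether the numbers stand for a pairing. DCBLD2 was called lower under every alternative run. No called gene chosen by the naming rule changed direction, while the median of a list changed sign in 63 of 672 combinations of list and alternative and its balance of calls in 37. Of 190 other genes chosen by the naming rule, all called, 79 lost their call without labelled DCBLD2 replicate 2 and 36 without its replicate 1, against 8 to 16 without any other library. The large rises and falls among these genes were chosen to keep their call in DESeq2 and with any 1 library left out. They could not lose it there, so the share lost was partly fixed by the choice. The absence of turned directions is to be read with the same limit. Of all 2669 called genes, 498 kept their call with any 1 library left out. The offset and the alternatives joined with it were chosen after seeing the data. Depth limits the genes named at under 1 TPM, and 3 libraries a group limit all p-values.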
